A study of Mus musculus with 15 samples.

Results

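Genes of the complement and coagulation cascades were followed in mouse liver across a diet-induced fatty liver disease model and its treatment. The set held 43 genes, taken by symbol from the 17527 genes of the deposited expression table: complement components and their regulators, the clotting factors and their inhibitors, and 2 genes of fibrinolysis. All 43 were in the table and all 43 passed the filter used for testing, a mean of at least 1 FPKM (fragments scaled by transcript length and by the fragments of the library) over the 15 libraries. Total liver RNA was sequenced in 3 groups of 5 libraries. The control group had no model diet or powder named in its labels, and neither its food nor the strain, sex or age of any group was given. The model group received a high-fat, high-sucrose diet for 20 weeks, in which fat gave 60% of the energy, protein 20% and carbohydrate 20%, with 0.2% cholesterol added, and drank water with 42 g/L of sugar (55% sucrose, 45% fructose). From week 12 these mice were given saline by mouth each day. The BBBPH group had the same diet and water and received 150 mg/kg of biotransformed bear bile powder by mouth each day over the same weeks; the labels count 14 mice in the dosed group, and 5 libraries of it were analysed. The labels number the libraries separately but do not call them separate animals, so the p-values measure the spread between libraries. Wherever 5 values of a group are listed, they stand in the order of the library numbers: control 1_1, control 1_5, control 2_1, control 2_2 and control 3_4, then model 1_1, model 1_4, model 2_1, model 2_3 and model 3_4, then BBBPH 2_1, BBBPH 2_2, BBBPH 3_1, BBBPH 3_2 and BBBPH 3_4. The length behind the FPKM of a gene, read back from the values, differed over 1.5-fold from its annotated exon bases for 6 of the 43 genes (Mbl1 5964 against 1570 bases, C4bp 1944 against 6730, and Serpinc1, Fgb, F2 and C1qc), so levels of different genes compare only roughly. Means are given with their SD over the 5 libraries.

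The liver makes most of the plasma proteins of both cascades. Complement is started by C1q bound to antibody (classical pathway), by mannose-binding lectin on microbial sugars (lectin pathway) or by slow turnover of C3 (alternative pathway). Each route builds a convertase that cleaves C3, and the terminal proteins then assemble into a pore in the target membrane. Coagulation runs through serine proteases that activate one another, from contact factors or from tissue factor with factor VII, to thrombin, which cuts fibrinogen into fibrin. Antithrombin and protein C hold it in check, and plasmin dissolves the clot. Hepatocytes transcribe most of these genes, several of which, fibrinogen and C3 among them, are acute-phase genes induced by interleukin-6. C1q and properdin come mainly from macrophages and other myeloid cells, and factor D is best known from fat cells.

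The libraries rested on 35395712 to 39624160 fragments, read back from the FPKM values. The smallest count of any set member in any library was 4 fragments, for Cfd, and the other 42 members had at least 973. The set made up 3.15 to 3.77% of summed FPKM in the control libraries, 3.06 to 5.17% in the model libraries and 2.89 to 3.96% in the BBBPH libraries. Model 1_4 stood apart from its group, its Saa2, an acute-phase gene, at 14965 FPKM while the rest of the model group lay between 61.6 and 194. Over all genes tested, 8.64% were called lower in model against control and 14.2% higher in BBBPH against model. Of 9 hepatocyte markers tested, 5 were called lower in model against control and 3 higher in BBBPH against model, and none was at 0 in any library. Their summed level was 67845 to 76709.6 FPKM in control, 44759 to 62517 in model and 63804 to 75374 in BBBPH libraries. BBBPH 2_2 stood apart in 8 pancreatic acinar markers, which summed to 3693 FPKM against 9.55 to 26.6 in the other 14 libraries, and control 2_1 in 8 skeletal muscle markers (381 FPKM against 0.268 to 1.83 in the other 14 libraries). Without model 1_4, BBBPH 2_2 and control 2_1 together, 14 set members were called in model against control, 14 between BBBPH and model and 3 between BBBPH and control, where all 15 libraries gave 15, 15 and 3. The hepatocyte list moved with the set members that were lower in the model, and its part in those results was not tested. In whole liver, fewer cells of a type and less RNA per cell cannot be told apart.

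In model livers 10 of the 43 genes fell and 5 rose against control, and in BBBPH livers 9 rose and 6 fell against the model. Between BBBPH and control livers 3 genes were called, all lower. The model libraries enter the first 2 comparisons, so an opposite sign in them is not independent evidence. A gene was called at a Benjamini-Hochberg adjusted p under 0.05 over the 9575 genes tested with limma on log2(FPKM + 1), and every fold change below is on that scale, also where it is given as a log2 change. The 15 genes called in model against control compare with 38.6% of all genes tested. There, 29.9% of all genes were higher and 8.64% lower, against 5 and 10 of the 43. In BBBPH against model the 15 called compare with 26.5% of all genes (14.2% higher, 12.2% lower), and in BBBPH against control the 3 compare with 28.1% (24.4% higher, 3.7% lower). The set's median log2 fold change was -0.038, 0.027 and -0.022 in the 3 comparisons in that order, where all genes tested had 0.12, 0.019 and 0.13, a difference of -0.16, 0.0082 and -0.16.

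Scaling by median ratios, which moved the median of all genes by -0.13 and -0.15 in the comparisons with control, changed the split to 3 higher and 18 lower in model against control and to 10 lower and 0 higher in BBBPH against control. Of all genes, 15.5% higher and 18.96% lower were called with that scaling in model against control, and 6.95% higher and 9.86% lower in BBBPH against control. Groups did not overlap for 12 members in model against control (23.9% of all genes tested), for 10 between BBBPH and model (17.0%) and for 5 between BBBPH and control (17.5%). With any 1 library left out, 14 to 17, 12 to 16 and 1 to 4 members were called. Where libraries are named below with a range of adjusted p, each was left out on its own, and where with a single value, they were left out together. The fold changes of 42 members are plotted by role.

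**Figure D1:**
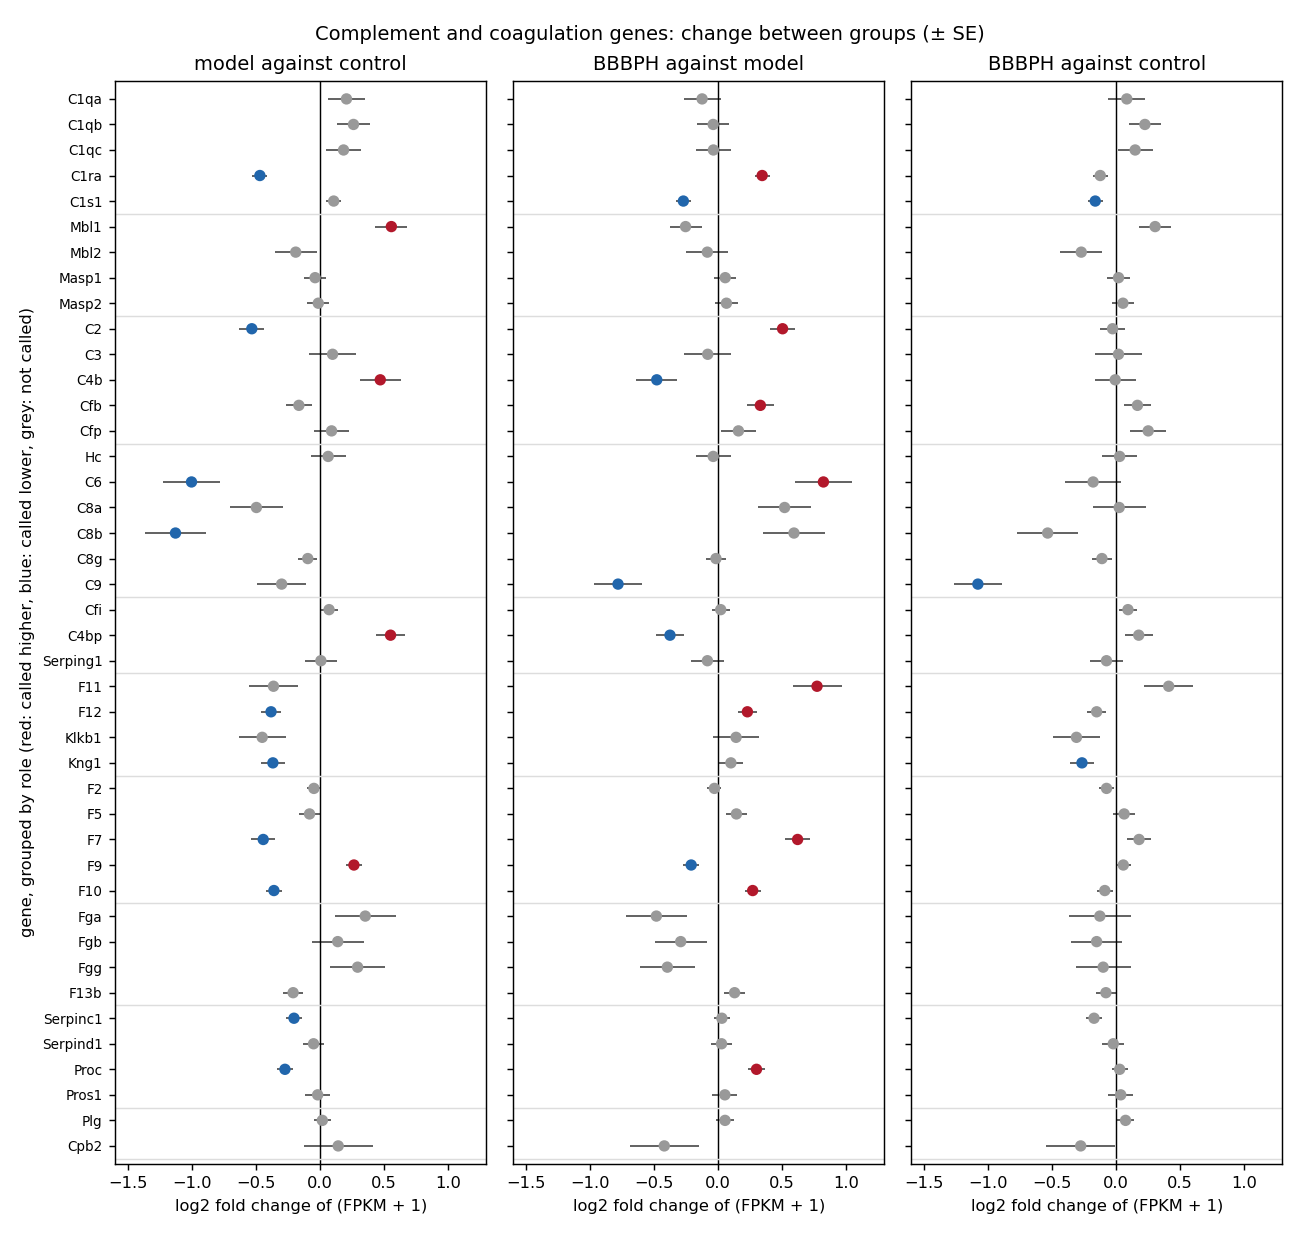
Log2 fold change of (FPKM + 1) with its standard error for 42 set members in the 3 comparisons, 5 libraries a group, grouped by role from C1 complex (top) to fibrinolysis (bottom), with Cfd left out because its values lie off the axis. Red points were called higher and blue points lower at an adjusted p under 0.05, and grey points were not called; the right panel has 3 coloured points against 14 in each of the others.

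The first enzyme of the classical pathway is a complex of C1q with the proteases C1r and C1s, and the genes of those proteases moved unlike each other. C1ra, which encodes C1r, fell in the model and rose in BBBPH against the model, whereas C1s1, which encodes C1s, was not called in the model and fell in BBBPH. C1ra stood at 120.4, 123, 133, 135 and 124 FPKM in the control libraries, 84.9, 96.6, 89.7, 93.3 and 92.6 FPKM in the model libraries and 119, 112, 125, 117 and 109.7 FPKM in the BBBPH libraries. All 5 model values lay below every value of the other groups, and the control and BBBPH values overlapped. With median-ratio scaling C1ra was called lower in BBBPH against control (log2 change -0.30, adjusted p = 0.00382). C1ra fell in the model from 127 ± 6.45 to 91.4 ± 4.37 FPKM (SD, n = 5; log2 fold change -0.47 ± 0.059 (SE), adjusted p = 4.35e-05) and rose to 116 ± 6.11 FPKM with BBBPH (log2 fold change 0.34 ± 0.059 (SE), adjusted p = 0.000666). For C1s1 the values were 169.6, 173, 193, 180.2 and 163 FPKM in the control libraries, 181, 199.7, 188, 194 and 185 FPKM in the model libraries and 152, 161, 159, 152 and 159.6 FPKM in the BBBPH libraries. Here the BBBPH libraries were the low ones, all below every other library. C1s1 fell in BBBPH against model (log2 fold change -0.27 ± 0.058 (SE), adjusted p = 0.00309) and against control (log2 fold change -0.16 ± 0.058 (SE), adjusted p = 0.0474), while model against control was not called (log2 change 0.11, adjusted p = 0.155). The call against control was lost on leaving out any of 13 libraries, namely control 1_1, control 1_5, control 2_1, control 2_2, model 1_1, model 2_1, model 2_3, model 3_4, BBBPH 2_1, BBBPH 2_2, BBBPH 3_1, BBBPH 3_2 and BBBPH 3_4 (adjusted p from 0.0527 to 0.117). It was also lost with the filter at 5 FPKM (adjusted p = 0.0513), robust eBayes (0.0521), a fit of those 2 groups alone (0.0703) and voom on the recovered counts (0.0569). The ratio of C1ra to C1s1 FPKM was 0.689 to 0.759 in control, 0.469 to 0.502 in model and 0.687 to 0.785 in BBBPH libraries, with no overlap between model and either other group. These genes lie 6902 bases apart on chromosome 6 on opposite strands (GRCm38; C1ra 124512405 to 124523443, C1s1 124530345 to 124542359). Reads of either could be shared with a close copy (C1rb, C1s2), which makes their levels uncertain.

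The 3 chains of C1q itself, which recognise antibody bound to a surface, were not called in any comparison. Their log2 fold changes were 0.21 (C1qa), 0.26 (C1qb) and 0.18 (C1qc) in model against control, with adjusted p of 0.271, 0.11 and 0.298. C1qb ranged over 58.1 to 77.2 FPKM in control, 60.6 to 102 in model and 65.004 to 92.9 in BBBPH livers. Without model 1_1, the lowest model library, C1qb was called higher in the model (adjusted p = 0.023). The C1qa to C1qb ratio stayed between 0.779 and 1.13 over the 15 libraries. Over all genes tested, 38.6% were called in model against control, and BBBPH had 14.2% higher against model and 24.4% higher against control. Of 10 Kupffer cell markers, 0 were called in model against control, 3 were higher in BBBPH livers than in model livers and 1 higher than in control. Their summed level was 221 to 299.6, 218 to 361 and 275 to 468 FPKM in control, model and BBBPH libraries.

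Of the lectin pathway, 1 of 4 genes was called in model against control and 0 in the other comparisons. Mbl1, a mannose-binding lectin, rose in the model. It stood at 35.5, 34.8, 34.9, 35.6 and 48.1 FPKM in the control libraries, 49.8, 63.2, 49.1, 63.6 and 54.4 FPKM in the model libraries and 54.2, 40.9, 58.3, 38.8 and 43.3 FPKM in the BBBPH libraries. Control 3_4 was close to the model values and the other control libraries lay between 34.8 and 35.6 FPKM; control and model did not overlap. The rise was from 37.8 ± 5.77 to 56.0001 ± 7.06 FPKM (log2 fold change 0.56 ± 0.13 (SE), adjusted p = 0.00286). BBBPH livers lay between, at 47.1 ± 8.63 FPKM, and were called against neither group (log2 change -0.25, adjusted p = 0.151, and log2 change 0.30, adjusted p = 0.08 against control). Without control 3_4 Mbl1 was called higher in BBBPH than in control (adjusted p = 0.0281). Mbl2, the other mannose-binding lectin and the most abundant gene of this group, held 256, 315, 227, 289.8 and 226 FPKM in the control libraries, 237, 148, 269, 236 and 278 FPKM in the model libraries and 164, 256, 208, 246 and 216 FPKM in the BBBPH libraries. These values overlapped in all comparisons, with the lowest in model 1_4 and BBBPH 2_1, and none was called (log2 change -0.19, adjusted p = 0.376 in the model). Masp1 and Masp2, the proteases that mannose-binding lectin carries, had log2 fold changes between -0.038 and 0.066 over the 3 comparisons. In the annotation 54.9% of the exon bases of Masp2 overlap Tardbp on the other strand, and whether reads were counted by strand is not stated.

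Among the genes whose products build the C3 convertases, C2 and C4b moved in opposite directions although their proteins form 1 enzyme. C2 supplies its protease. Its values were 41.1, 45.8, 44.9, 37.8 and 36.2 FPKM in the control libraries, 25.4, 35.4, 25.2, 28.7 and 26.6 FPKM in the model libraries and 43.6, 38.6, 44.1, 40.6 and 34.9 FPKM in the BBBPH libraries. Every model library was below every control library, while model 1_4 passed the lowest BBBPH library. C2 fell in the model from 41.2 ± 4.22 to 28.3 ± 4.203 FPKM (log2 fold change -0.53 ± 0.10 (SE), adjusted p = 0.000798) and rose to 40.3 ± 3.799 FPKM with BBBPH (log2 fold change 0.50 ± 0.10 (SE), adjusted p = 0.00164). C4b supplies the surface-bound part. It rose in the model from 195 ± 12.4 to 279.8 ± 83.5 FPKM (log2 fold change 0.47 ± 0.16 (SE), adjusted p = 0.0285) and fell to 196 ± 29.4 FPKM with BBBPH (log2 fold change -0.48 ± 0.16 (SE), adjusted p = 0.0358). Those means leaned on model 1_4 (401 FPKM) and model 2_3 (332 FPKM), since the other model values were 209 to 233 FPKM and the groups overlapped. The first call was lost without control 1_5, control 2_2, model 1_4 and model 2_3 (adjusted p from 0.0544 to 0.0764), and the second without model 1_4, model 2_3, BBBPH 2_2, BBBPH 3_2 and BBBPH 3_4 (adjusted p from 0.0544 to 0.0928). With no filter on low genes neither was called (adjusted p = 0.0512 and 0.0641), nor was the first with median-ratio scaling (0.146) or the second in a fit of those 2 groups alone (0.0782). Without both model 1_4 and BBBPH 2_2 the second fold change was -0.31. Reads of C4b may be shared with its copy C4a, which was not analysed here.

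Cfb, the factor B that takes the place of C2 in the alternative pathway, was not called in the model (log2 change -0.16, adjusted p = 0.224) and rose with BBBPH from 401 ± 45.8 to 506 ± 64.2 FPKM (log2 fold change 0.33 ± 0.10 (SE), adjusted p = 0.0289). Model and BBBPH overlapped, and the call was lost without model 1_1, model 2_1, model 3_4, BBBPH 2_1, BBBPH 2_2 and BBBPH 3_1 (adjusted p from 0.0577 to 0.0735) and with median-ratio scaling (adjusted p = 0.0552). C2 and Cfb lie 86 bases apart on chromosome 17, and 42.8% and 79.5% of their exon bases are shared with a read-through transcript on the same strand, so that some reads cannot be assigned to one of them. C3, the substrate of every convertase and the most abundant complement gene here, held 1476, 1417, 1377, 1494 and 2071 FPKM in the control libraries, 1378, 3003, 1468, 1569 and 1317 FPKM in the model libraries and 1575, 1501, 1769, 1444 and 1572 FPKM in the BBBPH libraries. Control 3_4 and model 1_4 stood far above the rest of their groups. C3 was called in no comparison (log2 fold changes 0.10, -0.081 and 0.018; adjusted p = 0.698, 0.784 and 0.951), and without model 1_4 the first turned to -0.12 and was not called (adjusted p = 0.422). Cfp, properdin, which stabilises the alternative convertase, was between 16.6 and 33.6 FPKM in all libraries and was not called.

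Cfd had the widest change of the set. It encodes factor D (adipsin), the protease that cuts factor B (chromosome 10, 79890853 to 79892655, plus strand). Cfd stood at 1.65, 0.236, 5.09, 0.468 and 0.429 FPKM in the control libraries, 49.2, 38.97, 13.9, 37.8 and 5.92 FPKM in the model libraries and 0.284, 0.938, 0.119, 0.343 and 0.383 FPKM in the BBBPH libraries. All model libraries were above all others, although they spread over 5.92 to 49.2 FPKM, and control 2_1 was the highest library outside the model. Cfd rose in the model (log2 fold change 3.51 ± 0.50 (SE), adjusted p = 0.000115) and fell with BBBPH (log2 fold change -4.11 ± 0.50 (SE), adjusted p = 5.21e-05), and BBBPH against control was not called (log2 fold change -0.60 ± 0.50 (SE), adjusted p = 0.382). Adding 1 FPKM before the logarithm makes these fold changes smaller than the ratio of means, 1.58 ± 2.04, 29.1 ± 18.3 and 0.413 ± 0.3102 FPKM in control, model and BBBPH. Over all genes tested, 29.9% were called higher in the model and 12.2% lower in BBBPH against model. Of 8 adipocyte markers, the 4 that passed the filter (Cidec, Fabp4, Car3 and Pparg) were all called higher in the model, and 2 were called lower in BBBPH against model. The list summed to 614 to 1400.5 FPKM in control, 1594 to 4025 in model and 776 to 1089 in BBBPH libraries, nearly all of it Car3. The markers most particular to fat cells stayed low: Adipoq was 0 to 1.53 FPKM in control, 0 to 0.4001 in model and 0.0212 to 0.395 in BBBPH libraries, and Plin1 was at most 0.433 FPKM. Their highest values were both in control 2_1, where Cfd was the highest of its group. In model 2_1, Adipoq, Plin1, Lep and Retn were listed at 0 beside 13.9 FPKM of Cfd.

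**Figure D2:**
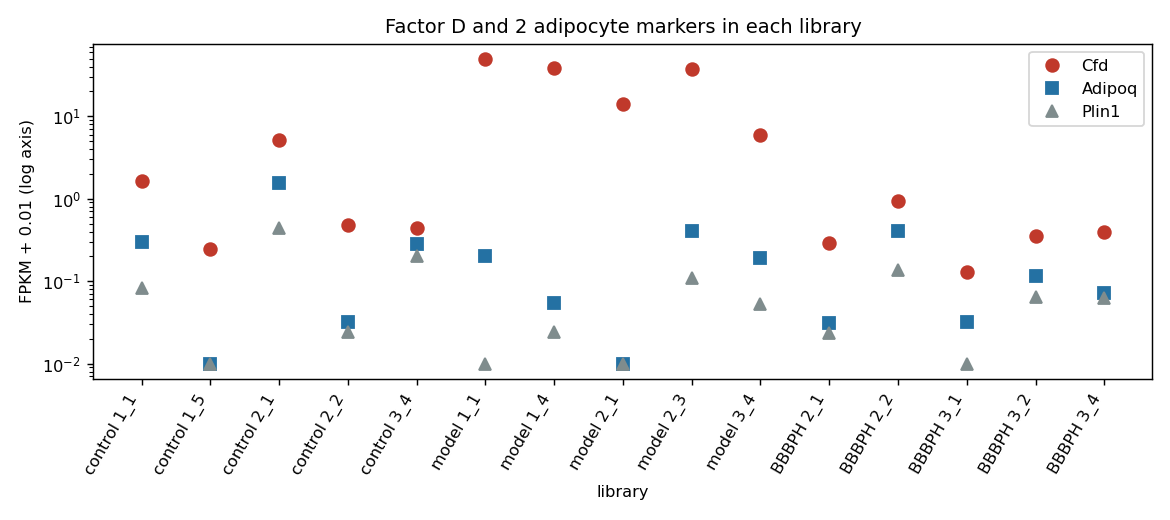
FPKM + 0.01 on a log axis of Cfd (circles) and of the adipocyte markers Adipoq (squares) and Plin1 (triangles) in each of the 15 libraries; a marker at 0 sits at the bottom of the axis. Cfd is at 5.92 to 49.2 FPKM in the 5 model libraries and at most 5.09 in the others, while Adipoq in the model is at most 0.4001.

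The terminal proteins assemble in order, from C5 (gene Hc) through C6, C7 and C8 to C9, and their genes did not move as one. In the model C6 and C8b fell, and with BBBPH C6 rose and C9 fell. Hc, which starts the pore, was not called in any comparison (log2 fold changes 0.065, -0.038 and 0.027). The upstream sequences of the C8 alpha and beta genes, which are neighbours, and of C9, which departed from them, are shown here as the 250 bases before the start of each gene (RefSeq, GRCm38.p6, read 5′ to 3′ on the gene's strand). The RefSeq start of C9 lies past its GENCODE start (6445327), so the last bases of its window fall inside the GENCODE gene. Capitals mark matches on either strand to the C/EBP core TTGCNNAA, the interleukin-6 response core CTGGGAA and the STAT palindrome TTCNNNGAA.
C8a, chr4:104876399-104876648, minus strand: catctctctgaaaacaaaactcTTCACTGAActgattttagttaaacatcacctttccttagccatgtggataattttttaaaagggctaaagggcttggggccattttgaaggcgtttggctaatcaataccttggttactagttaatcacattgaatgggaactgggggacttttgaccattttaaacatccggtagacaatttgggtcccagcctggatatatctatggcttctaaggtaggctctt
C8b, chr4:104766067-104766316, plus strand: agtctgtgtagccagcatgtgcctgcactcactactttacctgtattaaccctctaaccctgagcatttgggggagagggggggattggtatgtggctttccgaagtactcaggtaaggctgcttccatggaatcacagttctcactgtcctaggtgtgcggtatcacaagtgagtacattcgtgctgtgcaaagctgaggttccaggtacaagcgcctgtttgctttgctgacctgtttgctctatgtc
C9, chr15:6445096-6445345, plus strand: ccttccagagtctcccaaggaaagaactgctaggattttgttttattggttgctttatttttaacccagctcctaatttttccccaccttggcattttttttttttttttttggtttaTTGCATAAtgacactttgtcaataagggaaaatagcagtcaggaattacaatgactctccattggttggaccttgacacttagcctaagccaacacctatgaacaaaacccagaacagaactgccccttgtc
A match says only that the letters are present, and the C8b window holds none of these motifs.

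C8b, the beta chain of C8, held 228, 217, 224, 207 and 266 FPKM in the control libraries, 67.4, 175, 66.5, 140.5 and 107 FPKM in the model libraries and 214, 127, 198, 137 and 127 FPKM in the BBBPH libraries. All model libraries were below all control libraries, and BBBPH values overlapped those of both. C8b fell in the model from 228 ± 22.4 to 111 ± 47.2 FPKM (log2 fold change -1.13 ± 0.24 (SE), adjusted p = 0.00197). BBBPH livers were at 161 ± 42.1 FPKM and were called against neither model (log2 change 0.59, adjusted p = 0.0795) nor control (log2 change -0.54, adjusted p = 0.104). Against control, 2 alternatives called C8b lower (adjusted p from 0.0256 to 0.0271). They were a fit of those 2 groups alone and the fit without model 1_4 and BBBPH 2_1 together. The alpha chain gene C8a, 11131 bases away on chromosome 4 (104815679 to 104876398, C8b at 104766317 to 104804548) and the most abundant of the group, held 226, 231, 295, 264 and 279 FPKM in the control libraries, 137, 308, 119, 214 and 187 FPKM in the model libraries and 296, 252, 336, 243 and 203 FPKM in the BBBPH libraries. Model 1_4 was the highest model library and overlapped both other groups. C8a was not called in the model (log2 change -0.50, adjusted p = 0.0691) or with BBBPH (log2 change 0.52, adjusted p = 0.0765). Without model 1_4, C8a was called lower in the model (adjusted p = 0.00652) and higher in BBBPH against model (adjusted p = 0.00786), and so was C8b in BBBPH against model (adjusted p = 0.0163). The ratio of C8b to C8a FPKM was 0.7601 to 1.01 in control, 0.4904 to 0.656 in model and 0.506 to 0.725 in BBBPH libraries. Control did not overlap either other group in it, and model and BBBPH overlapped. The gamma chain C8g had log2 fold changes of -0.095, -0.016 and -0.11 and was not called. With median-ratio scaling it was called lower in the model (log2 change -0.25, adjusted p = 0.0149). The same held in BBBPH against control (log2 change -0.29, adjusted p = 0.0155).

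C6, which binds activated C5, was not among the genes picked by the naming rule and is singled out after its values were seen. It stood at 74.9 to 104 FPKM in control, 29.03 to 60.8 in model and 53.7 to 111 in BBBPH livers. Model and control did not overlap, and BBBPH overlapped both. C6 fell in the model (log2 fold change -1.004 ± 0.22 (SE), adjusted p = 0.00256) and rose with BBBPH (log2 fold change 0.82 ± 0.22 (SE), adjusted p = 0.0125). C9, whose copies form the wall of the pore, held 255, 249, 306, 289.8 and 248 FPKM in the control libraries, 155, 283, 168, 284 and 234 FPKM in the model libraries and 172, 104, 161, 96.3 and 117 FPKM in the BBBPH libraries. Every BBBPH library lay below every control library, and the model values overlapped those of both groups. C9 was not called in the model (log2 fold change -0.30 ± 0.19 (SE), adjusted p = 0.221). It fell in BBBPH from 225 ± 61.3 to 129.9 ± 34.3 FPKM against the model (log2 fold change -0.78 ± 0.19 (SE), adjusted p = 0.00664) and from 269.5 ± 26.5 FPKM against control (log2 fold change -1.08 ± 0.19 (SE), adjusted p = 0.00126), the largest fall of the set in that comparison. Relative to Hc in the same library, C9 was 1.399 to 1.89 in control, 1.11 to 1.46 in model and 0.649 to 0.897 in BBBPH libraries.

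**Figure D3:**
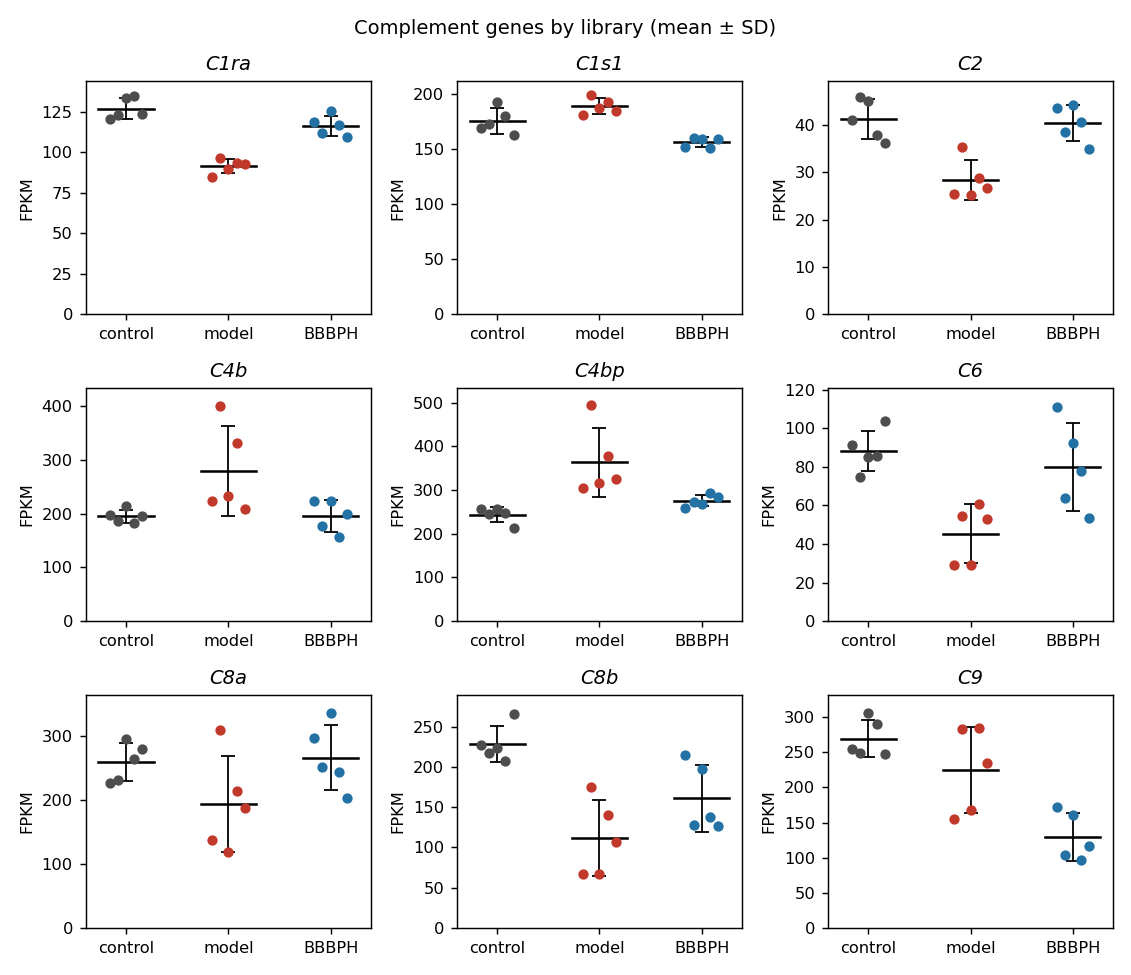
FPKM of 9 complement genes in each library (points), with group means and SD (lines and bars), 5 libraries a group, each axis from 0. C1ra, C2, C6 and C8b are lower in model than in control with no overlap, C4bp is higher with none, and C9 in BBBPH (96.3 to 172 FPKM) is below control (248 to 306 FPKM).

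Of the complement regulators 1 of 3 was called in the model, where 38.6% of all genes tested were called. C4bp, the C4b-binding protein that takes the classical convertase apart, rose there, in the same direction as C4b. Its values were 256, 245, 256, 248 and 213 FPKM in the control libraries, 304, 494, 315, 378 and 324 FPKM in the model libraries and 259, 273, 268, 292 and 284 FPKM in the BBBPH libraries. The 3 groups did not overlap: control 3_4 was the lowest library and model 1_4 the highest. C4bp rose from 244 ± 17.6 to 363 ± 78.6 FPKM (log2 fold change 0.55 ± 0.11 (SE), adjusted p = 0.00138) and fell to 275 ± 12.9 FPKM with BBBPH (log2 fold change -0.38 ± 0.11 (SE), adjusted p = 0.0209), and BBBPH against control was not called (log2 change 0.18, adjusted p = 0.243). Without model 1_4 and BBBPH 2_1 the second fold change was -0.24 (adjusted p = 0.0475), and without model 1_4, BBBPH 2_2 and control 2_1 it was not called (adjusted p = 0.0545). Serping1, the C1 inhibitor, which also inhibits factor XII and kallikrein, held 433, 434, 487, 450.1 and 439 FPKM in the control libraries, 379.5, 647, 375, 477 and 422 FPKM in the model libraries and 472, 396, 468, 371 and 428 FPKM in the BBBPH libraries. Model 1_4 was the highest, and all groups overlapped. Neither Serping1 nor Cfi, factor I, which cleaves C3b and C4b, was called (log2 fold changes 0.0074 and 0.072 in the model).

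The contact factors, which start clotting on charged surfaces and release bradykinin, all had negative fold changes in the model, and 2 of 4 fell by the test. Of all genes tested, 38.6% were called in that comparison and 8.64% were called lower. F12, factor XII, held 249, 226, 274, 256 and 274 FPKM in the control libraries, 213, 202, 197, 199.7 and 169 FPKM in the model libraries and 240.5, 232, 246, 217 and 213 FPKM in the BBBPH libraries. Model libraries were below all control and all BBBPH libraries. F12 fell in the model from 256 ± 19.96 to 196 ± 16.2 FPKM (log2 fold change -0.38 ± 0.076 (SE), adjusted p = 0.00131) and rose to 229.7 ± 14.2 FPKM with BBBPH (log2 fold change 0.23 ± 0.076 (SE), adjusted p = 0.0365). The latter call was lost without model 2_1, model 2_3, model 3_4, BBBPH 2_1, BBBPH 2_2 and BBBPH 3_1 (adjusted p from 0.0542 to 0.0907), with TPM (adjusted p = 0.0771) and with median-ratio scaling (0.0752). Kng1, kininogen, the source of bradykinin and the most abundant of the group, held 1024, 1024, 951, 1079 and 904 FPKM in the control libraries, 664, 989.9, 717, 748 and 770.0 FPKM in the model libraries and 867, 829, 848, 781 and 810.0 FPKM in the BBBPH libraries. Model 1_4 was as high as the control libraries while the other 4 model libraries were lower, and BBBPH libraries were below all control libraries. Kng1 fell in the model (log2 fold change -0.37 ± 0.093 (SE), adjusted p = 0.00617) and in BBBPH against control (log2 fold change -0.27 ± 0.093 (SE), adjusted p = 0.0428), but BBBPH against model was not called (log2 change 0.10, adjusted p = 0.455). The call against control was lost without control 1_1, control 1_5, control 2_1, control 2_2, model 2_3, BBBPH 2_2, BBBPH 3_1, BBBPH 3_2 and BBBPH 3_4 (adjusted p from 0.0529 to 0.0988), and with no filter on low genes (adjusted p = 0.071). Reads of Kng1 may be shared with its copy Kng2.

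F11, factor XI, the target of factor XII, was singled out after its values were seen. Among the clotting factors of the set it had the largest rise in BBBPH against model. It was 10.6 to 27.4 FPKM in control, 13.1 to 16.6 in model and 20.2 to 32.9 in BBBPH libraries, with model and BBBPH apart and control over both. F11 rose in BBBPH against model (log2 fold change 0.77 ± 0.19 (SE), adjusted p = 0.00776) and was not called in the model (log2 change -0.36, adjusted p = 0.145) or against control (log2 change 0.41, adjusted p = 0.12). Control 3_4 was the lowest control library and control 2_1 the highest. Without control 3_4 F11 was called lower in the model (adjusted p = 0.00918), and without control 2_1 it was called higher in BBBPH against control (adjusted p = 0.043). Klkb1, plasma prekallikrein, 4658 bases from F11 on chromosome 8, was not called (log2 change -0.45, adjusted p = 0.0615 in the model, log2 change 0.14, adjusted p = 0.611 in BBBPH against model). It was called lower in the model without model 2_1 and model 3_4 (adjusted p from 0.0197 to 0.0477). Of its exon bases, 43.2% are shared with another transcript on the same strand.

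Between contact and fibrin stand the proteases that generate thrombin. F7 and F10 fell in the model and rose with BBBPH, F9 did the reverse, and F2 and F5 were called in no comparison. F7, factor VII, the partner of tissue factor, held 43.3, 45.1, 46.2, 42.1 and 33.2 FPKM in the control libraries, 25.9, 34.6, 30.6, 29.8 and 31.8 FPKM in the model libraries and 43.9, 48.5, 43.5, 53.2 and 48.3 FPKM in the BBBPH libraries. Only model 1_4 of the model libraries passed the lowest control library, control 3_4, and all BBBPH libraries were above all model libraries. F7 fell from 41.97 ± 5.16 to 30.5 ± 3.14 FPKM (log2 fold change -0.44 ± 0.095 (SE), adjusted p = 0.00208) and rose to 47.5 ± 3.95 FPKM (log2 fold change 0.62 ± 0.095 (SE), adjusted p = 0.000251). F10, factor X, which forms the enzyme that cuts prothrombin, held 199, 195, 198, 196 and 187 FPKM in the control libraries, 144, 169, 147, 142 and 159 FPKM in the model libraries and 189, 195, 174, 184 and 175 FPKM in the BBBPH libraries. The model libraries were below all others, and control and BBBPH overlapped. F10 fell in the model from 195 ± 4.87 to 152 ± 11.4 FPKM (log2 fold change -0.36 ± 0.062 (SE), adjusted p = 0.000454) and rose to 184 ± 8.895 FPKM (log2 fold change 0.27 ± 0.062 (SE), adjusted p = 0.00454). F7 and F10 are neighbours, 1499 bases apart on the plus strand of chromosome 8 (F7 13026034 to 13035809, F10 13037308 to 13056676). Their FPKM ratio, F7 to F10, was 0.177 to 0.233 in control, 0.1797 to 0.2099 in model and 0.232 to 0.288 in BBBPH libraries.

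F9, factor IX, was named outside the rule after its values were seen because it went against F7 and F10. It was 71.97 to 79.2 FPKM in control, 86.3 to 99.2 in model and 72.7 to 83.8 in BBBPH libraries, and the model libraries were above all others. F9 rose in the model (log2 fold change 0.27 ± 0.06 (SE), adjusted p = 0.00298) and fell with BBBPH (log2 fold change -0.21 ± 0.06 (SE), adjusted p = 0.0176). Under median-ratio scaling its rise in the model was 0.11 and not called (adjusted p = 0.184). F2, prothrombin, the most abundant of this group, held 753, 704, 791, 780.3 and 778 FPKM in the control libraries, 738, 742, 743, 718 and 740.1 FPKM in the model libraries and 724, 733, 738, 688 and 726 FPKM in the BBBPH libraries. Its log2 fold changes were -0.047, -0.028 and -0.075, and the model libraries spanned less than the control libraries. F5, factor V, the cofactor of factor X, had log2 fold changes of -0.081, 0.14 and 0.062. With median-ratio scaling F2 was called lower in both comparisons with control (log2 change -0.21, adjusted p = 0.025 in the model and log2 change -0.25, adjusted p = 0.0176 in BBBPH), and F5 lower in the model (log2 change -0.24, adjusted p = 0.0408).

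**Figure D4:**
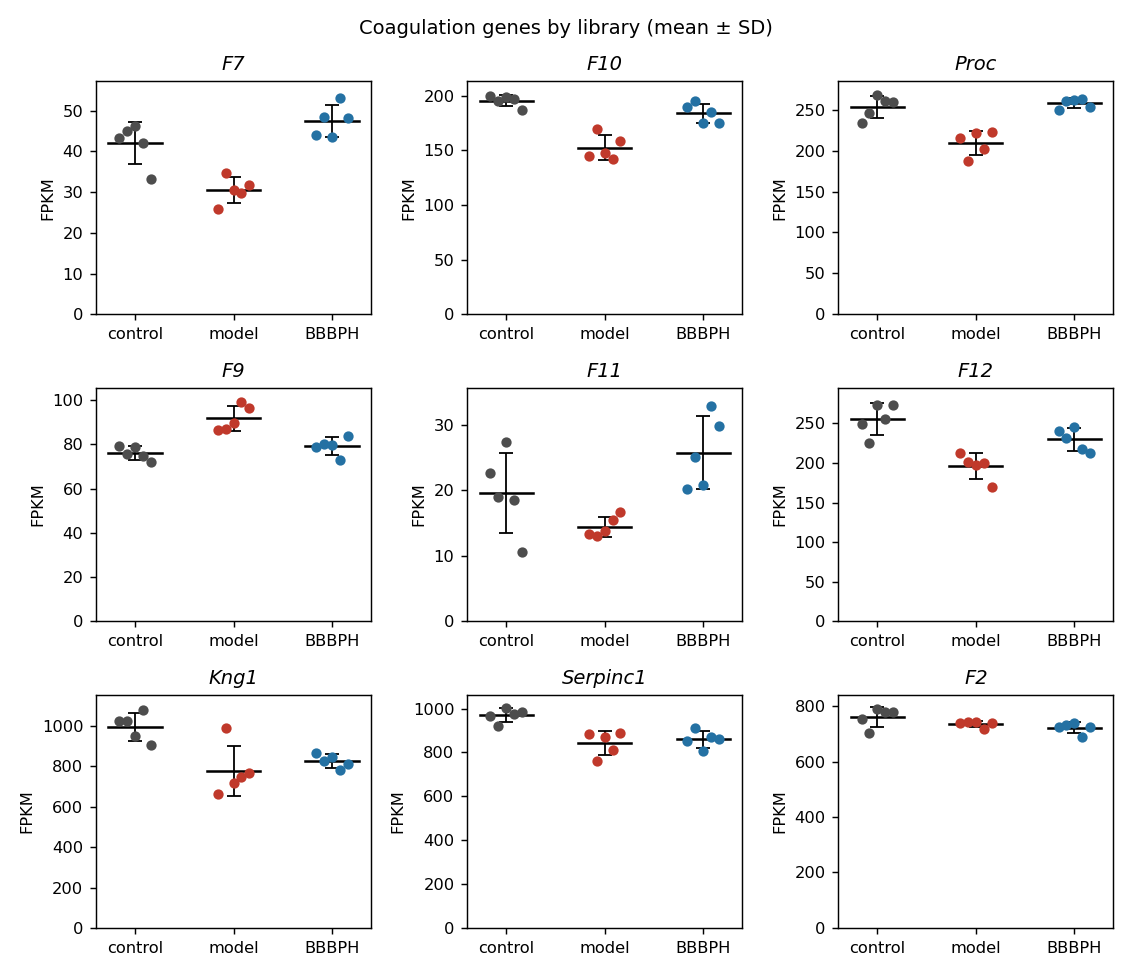
FPKM of 9 coagulation genes in each library (points), with group means and SD, 5 libraries a group, each axis from 0. F10, F12, Proc and Serpinc1 are lower in model than in control with no overlap, F9 is higher, and F2 overlaps in all groups (704 to 791 FPKM in control, 718 to 743 in model, 688 to 738 in BBBPH).

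Fibrinogen is built from 3 chains, and their genes lie side by side on chromosome 3 (Fgg 83007724 to 83015049, Fga 83026076 to 83033627, Fgb 83040141 to 83049863, the last on the minus strand). With C3 they had the highest mean FPKM of the set in control livers. They varied together between libraries and were called in no comparison. Because they varied together, the 250 bases before each RefSeq start are shown (GRCm38.p6, on the gene's strand), with capitals for the same motifs as above. The RefSeq start of Fga lies past the GENCODE start given above. The last bases of its window therefore fall inside the gene as placed here.
Fgg, chr3:83007474-83007723, plus strand: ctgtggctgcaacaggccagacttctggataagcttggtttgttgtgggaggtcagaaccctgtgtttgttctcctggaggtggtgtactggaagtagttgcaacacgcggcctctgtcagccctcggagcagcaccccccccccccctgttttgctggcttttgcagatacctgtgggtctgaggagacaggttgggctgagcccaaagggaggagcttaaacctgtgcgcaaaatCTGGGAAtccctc
Fga, chr3:83025903-83026152, plus strand: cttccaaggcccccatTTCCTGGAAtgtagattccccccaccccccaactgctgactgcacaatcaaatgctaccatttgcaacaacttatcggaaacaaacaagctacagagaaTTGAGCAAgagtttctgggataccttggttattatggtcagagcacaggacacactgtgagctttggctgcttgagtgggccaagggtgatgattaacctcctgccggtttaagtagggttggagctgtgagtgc
Fgb, chr3:83049864-83050113, minus strand: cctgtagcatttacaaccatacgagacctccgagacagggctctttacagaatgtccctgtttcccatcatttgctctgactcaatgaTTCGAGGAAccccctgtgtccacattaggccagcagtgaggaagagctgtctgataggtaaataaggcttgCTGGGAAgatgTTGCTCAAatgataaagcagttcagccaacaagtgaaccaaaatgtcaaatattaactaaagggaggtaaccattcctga
The Fga and Fgb windows each hold a C/EBP core and a STAT palindrome, and the Fgb and Fgg windows an interleukin-6 response core.

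Fgb, the beta chain, held 2729, 2751, 3201, 2659 and 3315 FPKM in the control libraries, 2551, 5487, 2505, 3498 and 2797 FPKM in the model libraries and 4029, 2302, 2587, 2223 and 2338 FPKM in the BBBPH libraries. The highest libraries were model 1_4, BBBPH 2_1 and model 2_3, and the groups overlapped in every comparison. Fgb was not called (log2 fold changes 0.14, -0.29 and -0.15; adjusted p = 0.609, 0.31 and 0.591). Fga, the alpha chain, was 1389.8 to 1808 FPKM in control, 1462 to 3601 in model and 1138 to 2491 in BBBPH libraries, and Fgg, the gamma chain, 1406 to 1814, 1439 to 3322 and 1205 to 2356. In both genes the top libraries were again model 1_4 and BBBPH 2_1. Over the 15 libraries the ratio of Fga to Fgb was 0.505 to 0.656 and of Fgg to Fgb 0.508 to 0.631. The Fga to Fgb ratio was above every control library in all 5 model libraries. Without BBBPH 2_1, Fga and Fgg were called lower in BBBPH against model (adjusted p = 0.0254 for Fga, 0.0422 for Fgg). Without model 1_4 and BBBPH 2_1, a choice made after the values were seen, Fga (log2 change -0.33, adjusted p = 0.0433) and Fgb (log2 change -0.31, adjusted p = 0.0382) were called lower in BBBPH against control. F13b, the carrier subunit of the factor that cross-links fibrin, was just outside the threshold in the model (log2 fold change -0.21 ± 0.081 (SE), adjusted p = 0.0509) and was called lower without control 3_4, model 3_4 and BBBPH 3_1 (adjusted p from 0.021 to 0.0461).

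**Figure D5:**
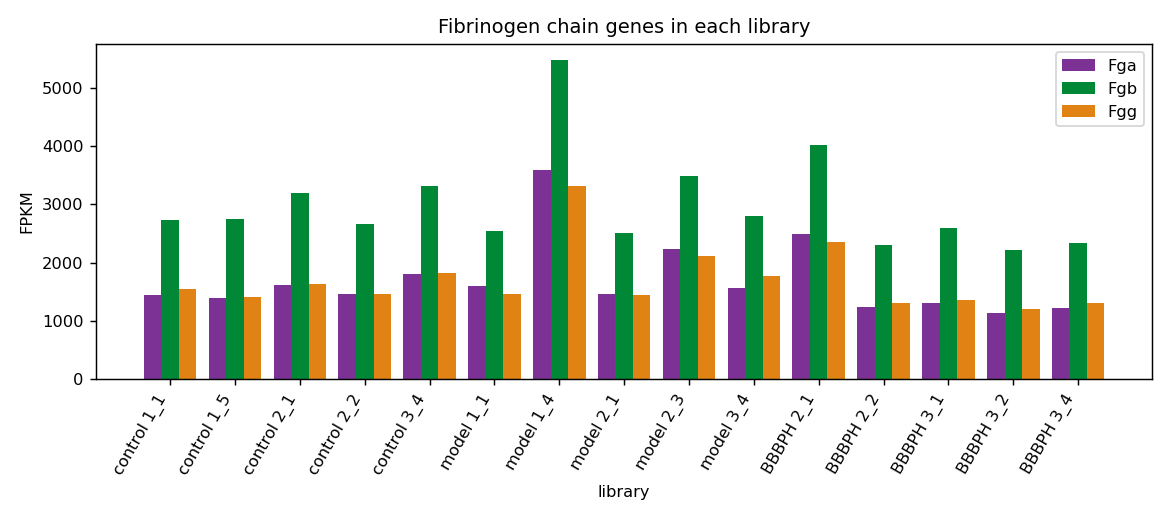
FPKM of the fibrinogen chain genes Fga, Fgb and Fgg (bars from 0) in each of the 15 libraries. Fgb is the tallest bar in every library, and all 3 peak in model 1_4 (3601, 5487 and 3322 FPKM) and, within its group, in BBBPH 2_1.

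Among the anticoagulants, antithrombin and protein C genes fell in the model and the other 2 were not called. Proc, protein C, which inactivates factors V and VIII, held 234, 246, 267, 260.0 and 259 FPKM in the control libraries, 215, 187, 221, 201 and 222 FPKM in the model libraries and 249.6, 261, 262, 263 and 253 FPKM in the BBBPH libraries. Model libraries were below all control and all BBBPH libraries. Proc fell from 253 ± 13.4 to 209 ± 14.9 FPKM (log2 fold change -0.27 ± 0.063 (SE), adjusted p = 0.00331) and rose to 258 ± 5.98 FPKM with BBBPH (log2 fold change 0.30 ± 0.063 (SE), adjusted p = 0.00256). Serpinc1, antithrombin, the main inhibitor of thrombin and factor X, held 967, 919, 1001, 977 and 983 FPKM in the control libraries, 885, 762, 871, 813 and 888 FPKM in the model libraries and 853, 911, 804, 871 and 863 FPKM in the BBBPH libraries. Control libraries were above all model and all BBBPH libraries. Serpinc1 fell in the model from 969.7 ± 30.9 to 844 ± 54.7 FPKM (log2 fold change -0.20 ± 0.063 (SE), adjusted p = 0.0198), was not called in BBBPH against model (log2 change 0.03, adjusted p = 0.765) and missed the threshold against control (log2 change -0.17, adjusted p = 0.0524). Without control 1_5 and model 1_4 it was called lower there (adjusted p from 0.0253 to 0.0497). In the model its fall was not called without model 1_4, BBBPH 2_2 and control 2_1 (adjusted p = 0.0815) or in a fit of those 2 groups alone (0.0552), and with median-ratio scaling it was -0.36. Serpind1, heparin cofactor II, and Pros1, protein S, the cofactor of protein C, had log2 fold changes of -0.05 and -0.018 in the model, 0.027 and 0.053 in BBBPH against model.

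The set holds 6 proteins that need vitamin K to be made functional: F2, F7, F9, F10, Proc and Pros1. In the model 3 fell (F7, F10 and Proc), 1 rose (F9) and 2 were not called, while in BBBPH against model F7, F10 and Proc rose and F9 fell. Their median log2 fold change was -0.16 and 0.16, and 0 were called in BBBPH against control, where 28.1% of all genes tested were called. With median-ratio scaling F10 (log2 change -0.26, adjusted p = 0.0199) and F2 (log2 change -0.25, adjusted p = 0.0176) were called lower in that comparison. Of 7 genes of the vitamin K cycle, which regenerates the cofactor, 3 rose and 1 fell in the model. Over all genes tested, 29.9% were called higher and 8.64% lower there, and 14.2% and 12.2% in BBBPH against model. Ggcx, the carboxylase that uses vitamin K, rose in the model (log2 change 0.40, adjusted p = 0.00536) and in BBBPH against control (log2 change 0.56, adjusted p = 0.00131). Cyp4f14, a cytochrome P450, fell in both (log2 change -0.68, adjusted p = 0.00107, and log2 change -0.46, adjusted p = 0.0179 for BBBPH).

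Plasminogen and its brake close the cascade. Plg, the precursor of plasmin, held 925, 870.4, 959, 855 and 927 FPKM in the control libraries, 865, 1011, 859, 893 and 975 FPKM in the model libraries and 1005, 944, 945, 896 and 984 FPKM in the BBBPH libraries. Groups overlapped throughout, and Plg was not called (log2 fold changes 0.019, 0.055 and 0.074; adjusted p = 0.846, 0.589 and 0.424). Cpb2, a carboxypeptidase that slows fibrin breakdown, was 816 FPKM in model 1_4 against 222 to 306 in the other model libraries, 259.8 to 307 in control and 199 to 276 in BBBPH. It was not called (log2 change 0.14, adjusted p = 0.699 in the model), and without model 1_4 that fold change turned to -0.20 (adjusted p = 0.154). Without model 1_4 and BBBPH 2_1 it was called lower in BBBPH against control (log2 change -0.34, adjusted p = 0.0212).

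Genes around the cascades were read from separate lists. For comparison, 29.9% of all genes tested were called higher and 8.64% lower in the model. In BBBPH against model these shares were 14.2% and 12.2%. Of the other soluble complement genes the model had 2 higher and 1 lower of 9 tested, and BBBPH against model 2 higher and 1 lower of 9. Colec11, a collectin of the lectin pathway, rose in the model (log2 change 0.45, adjusted p = 0.000645) and fell with BBBPH (log2 change -0.27, adjusted p = 0.022). It is also on the list of stellate cell and fibroblast markers given below, of which 9 of 10 were called higher in the model. C1rl, a relative of C1r, rose in BBBPH against model (log2 change 0.39, adjusted p = 0.0108). Complement receptors and membrane regulators had 5 higher and 0 lower of 9 in the model and 1 higher and 2 lower of 9 in BBBPH against model. Cd59a, which blocks the membrane pore, rose in the model (log2 change 0.57, adjusted p = 0.000158) and fell with BBBPH (log2 change -0.35, adjusted p = 0.00687). So did Cd93, a receptor on endothelial and myeloid cells (log2 change 0.69, adjusted p = 0.000426 in the model and log2 change -0.51, adjusted p = 0.0052 in BBBPH against model). Cd55, which speeds the decay of convertases, rose in BBBPH against model (log2 change 0.21, adjusted p = 0.032).

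Other coagulation genes, soluble but for the membrane protein F3, had 5 higher and 2 lower of 14 in the model. BBBPH against model had 3 higher, F3 among them, and 2 lower of 14. The shares of all genes tested were 29.9% higher and 8.64% lower in the former and 14.2% and 12.2% in the latter. Tfpi2, a protease inhibitor of the tissue factor pathway inhibitor family, rose in the model (log2 change 1.11, adjusted p = 5.53e-06) and fell with BBBPH (log2 change -0.73, adjusted p = 0.000209), as did Plau, the urokinase that activates plasminogen (log2 change 0.80, adjusted p = 0.000259 and log2 change -0.56, adjusted p = 0.00466). Fgl1, a fibrinogen-like protein of hepatocytes, rose in the model (log2 change 1.75 ± 0.44 (SE), adjusted p = 0.00609). The summed level of this list was 3266 FPKM in model 1_4 against 1667 to 2159 FPKM in the other model libraries. Whether the Fgl1 call holds without model 1_4 is not given here. F3, tissue factor, which is the partner of factor VII, rose in BBBPH against model (log2 change 1.02, adjusted p = 0.00137) and against control (log2 change 0.89, adjusted p = 0.0046). Of 4 receptors tested, 3 rose in the model. Anxa2, which binds plasminogen at the cell surface, rose most (log2 change 1.78, adjusted p = 2.98e-06) and fell with BBBPH (log2 change -1.27, adjusted p = 5.26e-05). Thbd, thrombomodulin, which turns thrombin into an activator of protein C, rose in the model (log2 change 0.89, adjusted p = 0.00264) and fell with BBBPH (log2 change -1.32, adjusted p = 0.000222).

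Genes of acute-phase signalling had 3 higher and 0 lower of 10 in the model and 0 higher and 2 lower of 10 in BBBPH against model. Of all genes tested, 29.9% were higher and 8.64% lower in the former comparison and 14.2% and 12.2% in the latter. Log2 fold changes of the signalling list in the model ran from -0.61 (Socs3, not called) to 0.89 (Il1r1). Stat3, which carries the interleukin-6 signal, rose in the model (log2 change 0.47, adjusted p = 0.0309). Cebpd and Cebpb, C/EBP factors of the acute phase, fell in BBBPH against model (log2 change -0.66, adjusted p = 0.00776, and log2 change -0.44, adjusted p = 0.0363). Socs3, the feedback inhibitor of that signal, fell in BBBPH against control (log2 change -1.29, adjusted p = 0.0142). The summed level of the signalling list was 230.6 FPKM in model 1_4 and 183.8 to 209.7 FPKM in the other model libraries. Whether the Stat3, Cebpd and Cebpb calls hold without model 1_4 is not given here. Among hepatocyte transcription factors, Hnf4a, a regulator of many clotting factor genes, fell in BBBPH against model (log2 change -0.54, adjusted p = 0.00147). RefSeq windows from 250 bases before to 50 after the start were found for 33 of the 43 members. The C/EBP core TTGCNNAA was present in 11 of them and in 10.8% of 32544 windows of all genes, CTGGGAA in 6 (11.02%), TTCNNNGAA in 7 (8.33%), the HNF4 core CAAAGTCCA in 0 (0.479%) and TATAAA in 3 (13.6%). Both strands were searched. TTCNNNGAA and the interleukin-6 core can overlap, as a STAT site may hold both.

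In model against control, 29.9% of all genes tested were called higher and 8.64% lower, and in BBBPH against model 14.2% and 12.2%. Other cell type markers, in model against control, were called as follows. Stellate cell and fibroblast markers were 9 higher and 0 lower of 10 tested, recruited and lipid-associated macrophage markers 5 higher and 0 lower of 8, endothelial markers 4 higher and 1 lower of 10 and neutrophil markers 2 higher and 0 lower of 5. In BBBPH against model, stellate markers were 0 higher and 5 lower of 10, recruited macrophage markers 0 higher and 4 lower of 8, erythroid markers 2 higher and 1 lower of 5, endothelial markers 1 higher and 1 lower of 10 and neutrophil markers 0 higher and 0 lower of 5. Of the remaining lists in model against control, 0 genes were called in erythroid (5 tested), pancreatic acinar (8), skeletal muscle (6), T and NK cell (1), B and plasma cell (1), cholangiocyte (1) and platelet (1) markers. Summed levels of the stellate list did not overlap between control and model (129 to 159 against 170.3 to 213 FPKM; BBBPH 153 to 171). Their part in the changes of the set was not tested.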

How the data were processed

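Total RNA of mouse liver was made into 15 RNA sequencing libraries. The values are the authors' FPKM, used as deposited, 1 column per library and not pooled. The build mm10 and the tools HISAT2, fastp, DESeq2 and HTSeq are listed in the submitters' processing notes, with no versions or roles. The annotation and the strand setting are not given in the sources used here. A series table and the single files held equal values, and 0 value columns were unmapped. Whole fragment counts could be read back for 17522 of 17527 genes (within 0.02 of a whole number), which gave the depth.

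Libraries were grouped by the treatment label. The test was limma 3.58.1 in R 4.3.3 on log2(FPKM + 1) of the 9575 genes averaging 1 FPKM or more, 3 group means, eBayes with a mean trend and 12 residual degrees of freedom. P-values are 2-sided, with Benjamini-Hochberg adjustment per comparison. The procedure was tested on simulated data. Positions are from GENCODE M21 (GRCm38) and upstream sequences from RefSeq (GRCm38.p6).

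Values in every library are given for the 6 members with the smallest adjusted p in each comparison and the member with the highest mean FPKM of each role. From each list of other genes at most 3 with the smallest adjusted p per comparison are named. Members, lists and tests were chosen with earlier results of these data known. A total of 27 alternatives were run: median-ratio scaling, TPM, 0.1 as the pseudocount, all genes without a filter, only genes of at least 5 FPKM, robust eBayes, a fit of 2 groups, a replicate block, voom on the recovered counts, 3 sets of libraries left out (1 of them, model 1_4 with BBBPH 2_1, chosen after seeing the data) and each of the 15 libraries left out in turn. Tables and figures were made in Python 3.11.15 (pandas 2.3.3, numpy 2.4.6, matplotlib 3.10.9).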

Additional observations from a re-analysis of the deposited data

Results flagged for a closer look

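In 13 of 129 checks (43 genes in 3 groups of 5), the highest or lowest library was separated from its nearest neighbour by more than 0.71 of the group's range; chance gives about 5% of groups, or 1 in 20. Each value follows with the range of the other 4 libraries of its group. Control 3_4 was high in Mbl1 (48.1 FPKM against 34.8 to 35.6) and in C3 (2071 FPKM against 1377 to 1494) and low in C4bp (213 FPKM against 245 to 256). Control 2_1 was high in Serpind1 (298 FPKM against 255 to 259). Model 1_4 was high in C3 (3003 FPKM against 1317 to 1569) and in Cpb2 (816 FPKM against 222 to 306).

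BBBPH 2_1 was high in all 3 fibrinogen chain genes: Fga (2491 FPKM against 1138 to 1308), Fgb (4029 FPKM against 2223 to 2587) and Fgg (2356 FPKM against 1205 to 1353). BBBPH 3_2 was low in Cfi (333 FPKM against 367 to 379) and in F2 (688 FPKM against 724 to 738), and BBBPH 3_4 was low in F5 (116 FPKM against 138 to 144). F2 was also low in model 2_3 (718 FPKM against 738 to 743).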

How the results depend on the processing

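Of the 33 called values of set members, 0 changed sign in any of the 27 alternatives, and 51 of 96 values that were not called did in at least 1. Called values lie far from 0 for their SE by selection, and the alternatives reuse the same libraries. A change of sign was therefore unlikely from the start, and its absence does not measure how firm the calls are. Of the 15 genes called in model against control, C1ra, C2, C4bp, C6, C8b, Cfd, F10, F12 and Kng1 were called in all 27 alternatives. So were C2 and Cfd in BBBPH against model, and C9 in BBBPH against control. Calls of C4b, Cfb, F12 (BBBPH against model), Kng1 and C1s1 (BBBPH against control) were lost when single libraries were left out and under some processing choices, and those of Serpinc1 and F9 (model against control) under such choices, as given with their values; C1s1 was lost in 21 of 27 alternatives. Median-ratio scaling gave 3 members higher and 18 lower in model against control and 10 called, 10 lower, in BBBPH against control; of all genes it called 15.5% higher and 18.96% lower in the former and 6.95% higher and 9.86% lower in the latter, and it centres the genes by construction. The lower calls added by that scaling were C8a, C8g, Cfb, F2, F5, F11, F13b and Klkb1 in model against control. In BBBPH against control they were C1ra, C8g, F2, F10, F12, F13b and Serpinc1. A fit of 2 groups gave 6 called in BBBPH against control, 6 lower, and leaving out model 1_4 and BBBPH 2_1 gave 7, 7 lower. With any 1 library left out, BBBPH against control had 1 to 4 called, 0 to 1 higher and 1 to 4 lower. Apart from the median-ratio scaling, the cause of these changes was not tested.

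With the replicate number as a replicate block, 10 members were called in model against control (2 higher, 8 lower, with 9 of the 15 calls kept and C8a added), 2 were called in BBBPH against model (1 higher, 1 lower) and 1 in BBBPH against control (1 lower). The labels do not say what the numbers mark. Control 1_5, model 1_4, model 2_3, BBBPH 3_1 and BBBPH 3_2 have a number that no other library has. The block fitted each of these exactly, so its group comparisons rest on the other 10 libraries. It also has fewer residual degrees of freedom than the 12 of the main fit. Its lower counts therefore cannot be told apart from the loss of those libraries. Residuals of 8 pairs of libraries with the same number correlated between -0.329 and 0.0239, and 0 of 10 libraries correlated best with their own number, and the numbers were not taken to pair the libraries. Over all genes tested, 3692, 2533 and 2691 were called in the 3 comparisons in the order model against control, BBBPH against model, BBBPH against control. The block gave 1315, 305 and 185, the filter at 5 FPKM 2259, 1634 and 1502 and median-ratio scaling 3297, 2646 and 1609; voom on recovered counts gave 3666, 2571 and 2669. Each member but Cfd had at least 973 fragments in every library; Cfd had as few as 4, which limits its low values.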
